A study of Mus musculus with 35 samples.

Results

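The difference between 2 times of day in mouse lung RNA was compared between mice given DT (diphtheria toxin) and control mice given IgG. For each gene, the change from ZT4 to ZT16 in DT mice had the same change in control mice subtracted from it. ZT counts the hours after lights on, so ZT4 lies in the rest phase of a mouse and ZT16 in its active phase. Of the 35 libraries of the series, 21 belong to these groups, with 4 DT mice at ZT4, 3 DT mice at ZT16 and 7 control mice at each time. The other 14 libraries came from mice given anti-Ly6G, an antibody against a neutrophil surface protein.

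The DT mice carried the alleles MRP8-Cre;iDTR-flox and received 10 ng of DT per g of body weight under the skin on 2 consecutive days, with harvest on the next day. In such mice the MRP8 promoter drives Cre in the neutrophil lineage, and Cre switches on a toxin receptor, so that the toxin kills the cells that express it. The control mice were wild type (WT), carried neither allele and received 3 µg of IgG per g on the same schedule and no DT. All mice were males of 7 to 9 weeks, and the left lung lobe was perfused with saline and frozen. The Ovation Single Cell kit amplified the RNA before library preparation. Mice of ZT16 were housed in cabinets with inverted light, those of ZT4 under the usual cycle, and all were harvested in the morning, so time of day and housing went together in both arms. The control mice came from a September batch (4 per time) and a July batch (3 per time), and all DT mice came from an April batch that held no control mice. DT, genotype and batch therefore cannot be told apart in any value below, and each comparison was repeated against September and July controls separately.

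The measure is a normalised expression value as deposited, and its read depth is unknown. A value of 1 was reached by 15431 to 15742 genes in each library, and the 10 highest genes took 6.87% to 10.1% of a library's sum. No pair of libraries was identical. The summed markers of alveolar type 2 (AT2) cells, which make surfactant, lay between 31410 and 40220 in all 21 libraries, so this defining lung cell type was present in each. Depletion of neutrophils by DT cannot be told apart from batch here, since no untreated mice of the April batch are among these libraries. Libraries carry a group, a batch and a table order (ZT4_DT Apr#1). Changes and differences are log2 ± SE from limma on log2(value + 0.5), with p-values adjusted over 16786 genes, two-sided, and a gene is called where its adjusted p is under 0.05. A positive difference means that the ZT16 minus ZT4 change was higher in DT mice than in controls.

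The circadian clock of lung cells is a feedback loop. BMAL1 (gene Arntl) and CLOCK switch on genes through E-boxes, the PER and CRY proteins repress them in turn, and REV-ERBα (Nr1d1) competes with the ROR receptors to set the phase of Arntl. DBP and BHLHE41 are outputs of the loop that also act back on it. Many lung genes for airway secretion, xenobiotic metabolism and leukocyte traffic follow this loop, and neutrophils themselves move in and out of the lung with the time of day.

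E-boxes are known to drive Nr1d1, Dbp and Bhlhe41, the 3 of the 22 core clock genes called higher. They also drive Per1, Per2 and Cry1, whose differences of -0.48, -0.25 and -0.30 were not called. The stretch upstream of the start is shown for the 3 called higher, from RefSeq on GRCm38.p6, cut where an annotated exon begins. The shown bases are chr11:98775378-98775627 (minus strand, 250 bases) for Nr1d1, chr7:45704997-45705087 (plus strand, 91 bases) for Dbp and chr6:145865559-145865670 (minus strand, 112 bases) for Bhlhe41. Capitals mark the E-box CACGTG.
Nr1d1: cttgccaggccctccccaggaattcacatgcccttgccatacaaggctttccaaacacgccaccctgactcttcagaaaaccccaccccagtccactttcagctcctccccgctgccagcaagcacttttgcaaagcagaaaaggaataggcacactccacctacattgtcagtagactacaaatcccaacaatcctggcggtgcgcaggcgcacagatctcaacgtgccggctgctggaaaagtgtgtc
Dbp: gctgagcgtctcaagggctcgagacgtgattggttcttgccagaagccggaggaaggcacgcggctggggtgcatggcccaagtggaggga
Bhlhe41: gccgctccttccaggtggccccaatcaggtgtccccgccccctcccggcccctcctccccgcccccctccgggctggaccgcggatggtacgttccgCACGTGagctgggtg
Over the full 250 bases before the start, the Bhlhe41 promoter held 1 E-box, and those of Nr1d1 and Dbp held 0. Of 32851 mouse promoters of that length, 6.02% held an E-box. The D-box TTATGTAA (0.819% of promoters) and the ROR element AGGTCA (14% of promoters), searched on both strands, were found in none of the 3. A match describes letters only, and these windows leave out the more distant elements.

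Nr1d1 (ENSMUSG00000020889, chromosome 11, 98767932 to 98775333, GRCm38) encodes the repressor REV-ERBα and had the largest difference of the named genes. In control mice its value ran from 188 to 454 at ZT4 (median 278) and from 14.8 to 57.2 at ZT16 (median 25.2). The DT mice measured 78.2, 115, 192 and 156 at ZT4 and 136, 95.4 and 56.2 at ZT16. The control groups were thus apart by a wide gap, whereas the DT groups overlapped and lay mostly between them. The change was -3.40 ± 0.31 in controls (adjusted p = 1.16e-09) and -0.51 ± 0.44 in DT mice (adjusted p = 0.474), and the difference was 2.89 ± 0.54 (adjusted p = 0.00114). It was 1.96 against September and 4.12 against July controls. Another gene overlaps 263 exon bases of Nr1d1, and whether counting used strand is not stated.

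Dbp (ENSMUSG00000059824, chromosome 7, 45705088 to 45710203), a clock output factor that binds D-boxes, showed the same pattern with more scatter. Control values ran from 41.3 to 122 at ZT4 (median 68.9) and from 9.20 to 41.6 at ZT16 (median 12.5), and DT values were 12.4, 35.5, 70.0 and 38.4 at ZT4 and 39.9, 38.3 and 25.4 at ZT16. Among DT mice, ZT4_DT Apr#1 lay as low as the control mice of ZT16. The DT groups overlapped widely, and the control groups overlapped by 1 value. The difference was 2.22 ± 0.65 (adjusted p = 0.0207), 1.42 against September and 3.29 against July controls. Its call was lost without ZT4_DT Apr#1, ZT16_DT Apr#1 or ZT16_DT Apr#2, where it measured as little as 1.76. Its exons share 539 bases with another gene.

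Bhlhe41 (ENSMUSG00000030256, chromosome 6, 145858243 to 145865558) encodes DEC2, a repressor of E-box genes. Control values ran from 13.4 to 34.1 at ZT4 (median 21.2) and from 11.8 to 18.2 at ZT16 (median 13.96). DT mice measured 11.2, 15.3, 24.2 and 16.8 at ZT4 and 27.8, 22.4 and 19.0 at ZT16. The medians fell in controls and were in the opposite order in DT mice, and the groups overlapped in both. The difference was 1.06 ± 0.29 (adjusted p = 0.0144), 0.64 against September and 1.63 against July controls, and the call was lost without ZT4_DT Apr#1 or ZT16_DT Apr#1. Its exons share 1280 bases with another gene.

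Of the 22 core clock genes 3 were higher and 2 lower, and 17 were not called, with a median of 0.04. Over all genes 4.93% were called higher and 8.86% lower, so the lower share of the list is near that background. Without ZT4_DT Apr#1 limma called Nr1d1 alone, and without ZT16_DT Apr#1 1 higher and 1 lower gene. Against September controls 2 of the 22 were called higher and 2 lower, beside 789 and 1278 of all 16786 genes. Against July controls 4 were called higher and 1 lower, beside 213 and 600. The 2 genes called lower against all controls had small differences. Rora (chromosome 9, 68653786 to 69388246), a ROR receptor gene that activates Arntl, ran from 52.4 to 66.7 at ZT4 (median 60.6) and from 67.7 to 87.5 at ZT16 (median 75.7) in controls. In DT mice it measured 59.4, 66.5, 57.3 and 61.8 at ZT4 and 61.3, 51.3 and 59.7 at ZT16. Control groups did not overlap and DT groups did, with a difference of -0.46 ± 0.15 (adjusted p = 0.0328). This call was lost in 6 of the 21 fits that left out a library, and with a transcript length trend removed the difference was -0.22 (adjusted p = 0.294). Csnk1e, a casein kinase gene that marks PER proteins for decay, differed by -0.25 (adjusted p = 0.0359), lost in 8 of those fits. Both calls were also lost with quantile normalisation.

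Some repressor genes of the loop changed with time in both kinds of mice. Cry1 rose by 1.508 in controls and 1.203 in DT mice, and Per2 by 1.29 and 1.04. Their differences, -0.30 ± 0.15 (adjusted p = 0.158) and -0.25 ± 0.40 (adjusted p = 0.715), did not pass. Arntl and Npas2, genes of the activating arm, had differences of opposite sign against the 2 control batches. Arntl differed by 0.90 against September and -0.87 against July controls, and Npas2 by 1.68 and -0.18. Between the 2 control batches themselves, the time change of neither gene was called as different. The other clock genes shown without a call had differences between -0.48 (Per1) and 0.43 (Nr1d2).

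**Figure D1:**
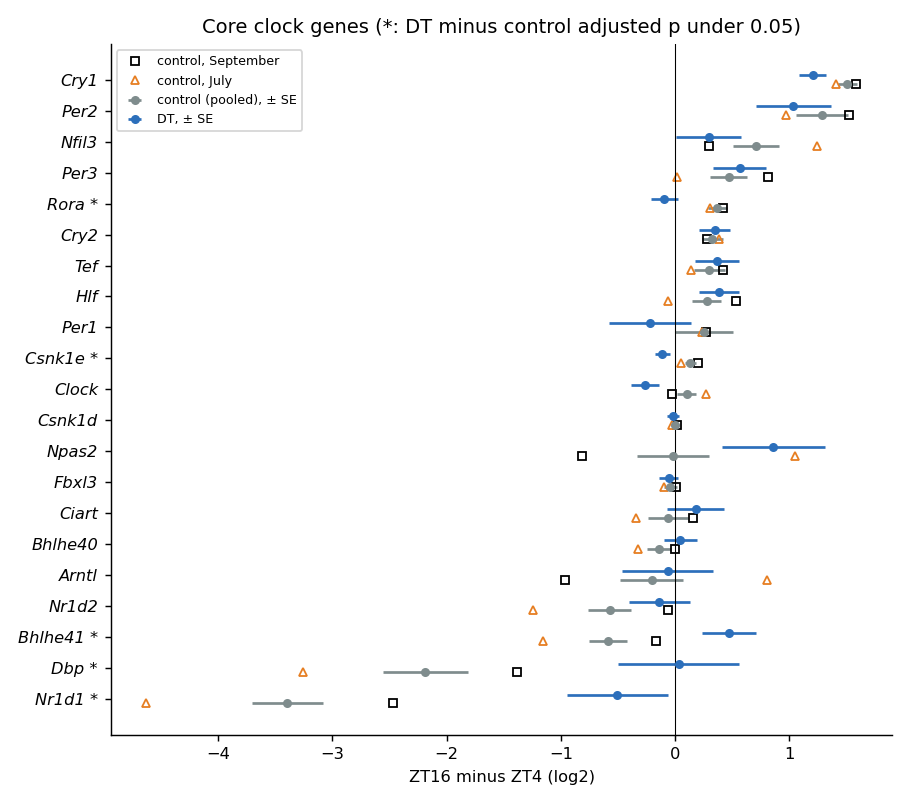
Change from ZT4 to ZT16 (log2, x axis) of 21 core clock genes, with pooled controls and DT mice as filled points with SE bars and the September and July controls as open marks. Nr1d1, Dbp and Bhlhe41 are negative in both control batches and lie at -0.51, 0.03 and 0.47 in DT mice, whereas Cry1 and Per2 are positive in every group shown.

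Some genes that the clock is known to drive also differed. Of 20 clock output genes 4 were lower and 16 not called, against 8.86% of all genes called lower, and the list's median was -0.18. In controls 6 of the 20 were called higher at ZT16 and 0 lower, beside 4.65% and 4.38% of all genes. The list was chosen with earlier results of these data known, so its count of lower calls is a description. Lonrf3, a gene of a ubiquitin ligase family, went from 3.18 ± 0.94 to 11.6 ± 1.98 in controls (mean ± SD, n = 7) and from 4.93 ± 1.16 (n = 4) to 7.65 ± 1.30 (n = 3) in DT mice, a difference of -1.15 ± 0.26 (adjusted p = 0.00392). Fmo2, which encodes the main lung flavin monooxygenase, went from 1044 ± 104 to 2117 ± 111 in controls and from 1162 ± 14.8 to 1568 ± 245 in DT mice, a difference of -0.60 ± 0.13 (adjusted p = 0.00376). Sgk1 (-0.52) and Klf9 (-0.82), targets of glucocorticoids, passed narrowly. Their calls were lost in 6 and 15 of the 21 fits that left out a library, and with quantile normalisation. The Klf9 call was also lost with no filter, with a robust limma fit and with the length trend removed (adjusted p = 0.0916). Of 18 glucocorticoid targets 2 were called lower, a share near that of all genes (8.86%). Without ZT4_control Sep#3 or ZT4_control Jul#1, 2 genes of the clock output list were called.

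**Figure D2:**
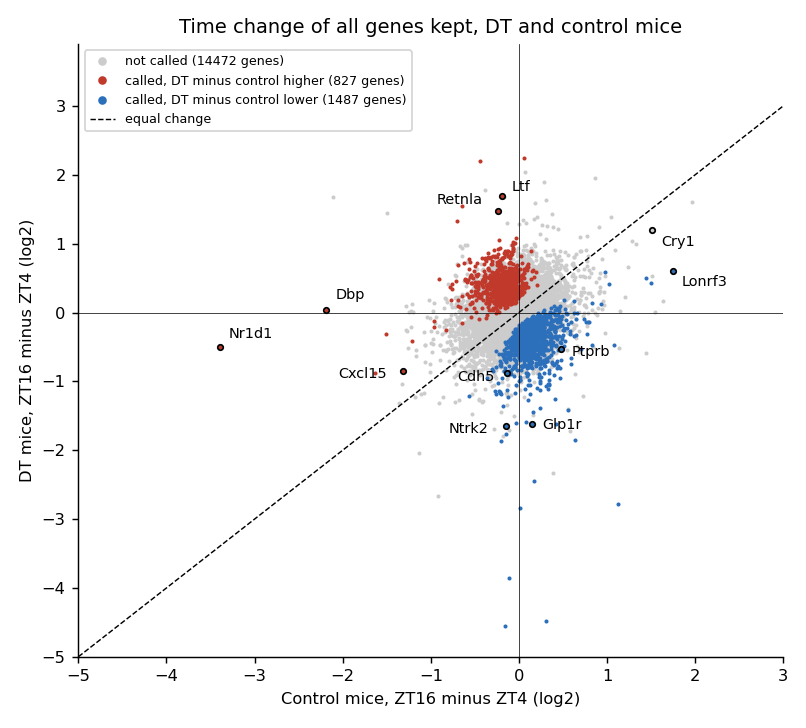
Change from ZT4 to ZT16 (log2) in control mice (x axis) against DT mice (y axis) for 16786 genes, with genes called for the difference in red (higher, 827) or blue (lower, 1487) and the dashed line at equal change. Nr1d1 and Dbp lie far to the left at little change in DT mice, Ltf and Retnla lie high and Glp1r and Ntrk2 low at little change in controls.

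Across all genes limma called 2314 of 16786 (13.8%) for the difference, 827 higher (4.93%) and 1487 lower (8.86%), with a median of -0.0042 over all genes. Differences over 2-fold were held by 144 of them, 68 higher and 76 lower. With quantile normalisation the split turned to 1092 higher and 984 lower, so the excess of lower calls depends on the scaling. Against September controls 2067 genes were called (12.3%), 789 higher and 1278 lower. Against July controls 813 were called (4.84%), 213 higher and 600 lower. Both sets share the DT libraries. Time itself called 2565 genes in DT mice (15.3%; 889 higher, 5.3%, and 1676 lower, 9.98%) and 1517 in controls (9.04%; 781 higher, 4.65%, and 736 lower, 4.38%). The same difference between the 2 control batches, September minus July, called 0 genes (0%) in limma, its lowest adjusted p being 0.0669, while 1363 genes had an unadjusted p under 0.05. Against anti-Ly6G mice in place of controls the DT time change called 3202 genes (19.1%), again with the DT libraries shared. The 827 higher genes had median time changes of 0.36 in DT mice and -0.16 in controls, and the 1487 lower genes -0.33 and 0.12. Since the difference chose these genes, those medians are a description.

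The calls for the difference in time change rested in part on single DT mice. Without ZT4_DT Apr#1 limma called 1161 genes, without ZT16_DT Apr#1 1462 and without ZT16_DT Apr#2 1488, and of the 1161 called without ZT4_DT Apr#1, 1154 were among the 2314. Against July controls the count fell to 367 without ZT4_DT Apr#1.

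Transcript length moved with the difference. The longest annotated transcript had a median of 2124.5 bases in higher genes and 5168 bases in lower genes. In the tenth of genes with the shortest transcripts (median 883 bases) the median difference was 0.19, and in the tenth with the longest (median 8105 bases) it was -0.23. A length index, the median log2 deviation of the 2 deciles with the longest transcripts minus that of the 2 with the shortest, was -0.01 to 0.23 in ZT4_DT and -0.21 to -0.14 in ZT16_DT, where the groups did not overlap. It was -0.14 to 0.06 and -0.08 to 0.13 in the control groups, which overlapped. With the length trend of each library removed, limma called 1418 genes, 634 higher and 784 lower, of which 1128 were among the 2314. When ZT4_DT Apr#1 was left out as well, 603 genes were called. This alternative was added after the data were seen. The part of RNA quality in the trend was not tested.

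**Figure D3:**
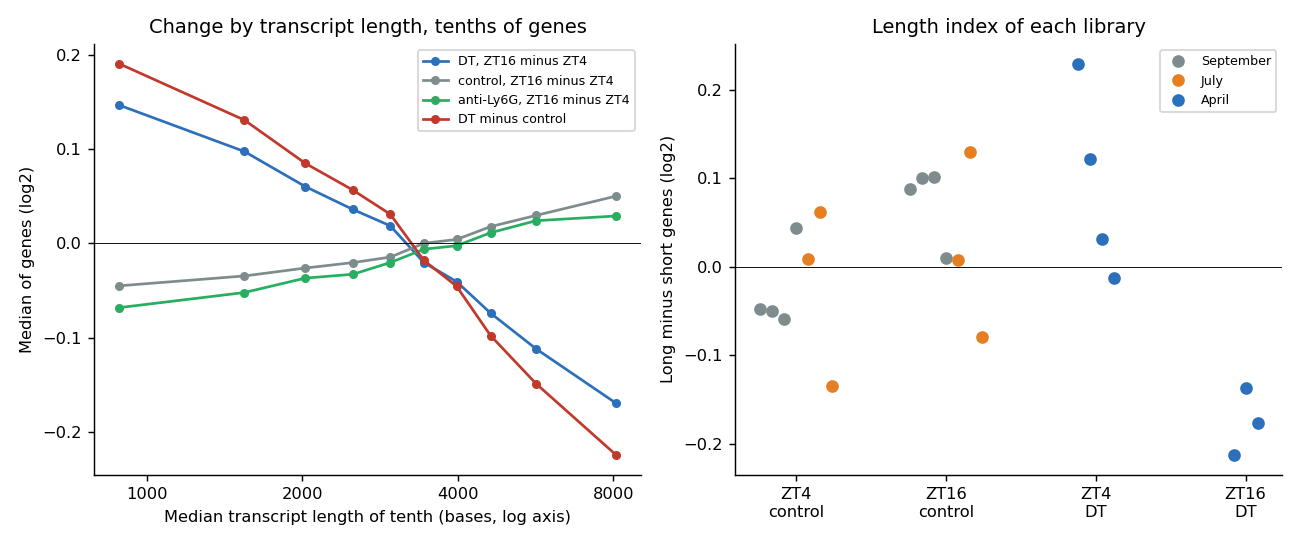
Left, median log2 time change and difference (y axis) in deciles of genes by transcript length (x axis, bases, log scale): in DT mice it goes from 0.15 to -0.17, and in control and anti-Ly6G mice it goes the other way. Right, the length index of each library by group, coloured by batch, with ZT16_DT below 0 in all 3 libraries.

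By the rule for named genes, which keeps called genes at or above the median level, the 4 largest negative differences were those of genes that fell with time in DT mice. Glp1r (ENSMUSG00000024027, chromosome 17, 30901817 to 30940791) encodes the receptor for glucagon-like peptide 1. Control values ran from 19.4 to 26.1 at ZT4 (median 24.3) and from 16.2 to 39.3 at ZT16 (median 26.8), and DT values were 75.6, 44.7, 37.1 and 27.3 at ZT4 and 10.7, 15.4 and 15.7 at ZT16. The DT groups did not overlap. The difference was -1.76 ± 0.32 (adjusted p = 0.000902), -1.73 against September and -1.79 against July controls.

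Ntrk2 (ENSMUSG00000055254, chromosome 13, 58806569 to 59133970), which encodes the neurotrophin receptor TrkB, measured 45.0, 43.2, 55.4 and 57.2 at ZT4 and 13.7, 15.0 and 18.4 at ZT16 in DT mice. Control values ran from 22.9 to 38.6 (median 25.3) and from 20.3 to 30.8 (median 24.5). All DT values thus lay above the control range at ZT4 and below it at ZT16. The difference was -1.50 ± 0.31 (adjusted p = 0.00203).

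Slfn5 (ENSMUSG00000054404, chromosome 11, 82951349 to 82964840), a gene of the interferon-responsive Schlafen family, measured 176, 136, 143 and 129 at ZT4 and 59.6, 61.1 and 59.3 at ZT16 in DT mice. Controls ran from 81.5 to 123 (median 99.7) and from 82.2 to 115 (median 111). The 3 DT values of ZT16 were almost equal, and the difference was -1.37 ± 0.21 (adjusted p = 0.00015). Its exons share 559 bases with another gene.

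Itga1 (ENSMUSG00000042284, chromosome 13, 114953096 to 115101964), the α1 chain of a collagen-binding integrin, measured 228, 171, 170 and 163 at ZT4 and 62.3, 82.5 and 97.1 at ZT16 in DT mice, against 106 to 151 (median 120) and 108 to 159 (median 133) in controls. As with Ntrk2, the DT values lay outside the control range on opposite sides at the 2 times. The difference was -1.32 ± 0.18 (adjusted p = 3.56e-05), and -1.31 and -1.32 against the 2 control batches. Its exons share 685 bases with another gene. None of these 4 calls was lost with any single library left out or with the length trend removed.

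Further large negative differences were those of Ston1 (-1.22), Abcb1a (-1.17), Atp7a (-1.16), Krt80 (-1.14), Mctp1 (-1.10) and Edn1 (-1.08). Abcb1a encodes a drug efflux pump, Atp7a a copper transporter and Edn1 the vasoconstrictor endothelin-1. Edn1 went from 33.5 ± 9.63 to 57.9 ± 17.1 in controls (n = 7) and from 45.4 ± 8.83 (n = 4) to 36.4 ± 6.46 (n = 3) in DT mice, and its call was lost without ZT16_DT Apr#1. In exon bases shared with another gene, Abcb1a has 553, Krt80 263 and Ston1 181. Mbd1 (-1.16) and Pcdhac2 (-1.19), the latter in a gene cluster with 2860 shared exon bases, complete the 12 named.

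Among called genes with a usual symbol, a mean level not under the median and 1 sign against both control batches, the 12 largest positive differences included those of Actg2, a smooth muscle actin gene (1.08), Hes1, a target of Notch (0.96), the annexin gene Anxa8 (0.82) and AU040972 (1.15). Ltf (ENSMUSG00000032496, chromosome 9, 111019271 to 111042767) encodes lactoferrin, an iron-binding protein of airway secretions and of neutrophil granules. DT values were 17.3, 36.2, 47.1 and 35.5 at ZT4 and 151, 77.8 and 97.0 at ZT16, and controls ran from 32.9 to 149 (median 56.3) and from 32.8 to 91.6 (median 68.6). The DT groups did not overlap, and control values scattered over the whole range. The difference was 1.88 ± 0.53 (adjusted p = 0.0177), and the call was lost without ZT4_DT Apr#1 or ZT16_DT Apr#1.

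Retnla (ENSMUSG00000061100, chromosome 16, 48842551 to 48844461) encodes RELMα, a secreted protein of airway epithelium and macrophages. DT values were 29.4, 44.4, 41.6 and 29.6 at ZT4 and 200, 66.7 and 74.0 at ZT16, and controls ran from 39.9 to 73.1 (median 42.4) and from 32.7 to 57.9 (median 46.0). The DT groups did not overlap, with ZT16_DT Apr#1 far above the rest. The difference was 1.70 ± 0.33 (adjusted p = 0.00149), 1.85 against September and 1.51 against July controls, and it kept its call with each library left out.

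**Figure D4:**
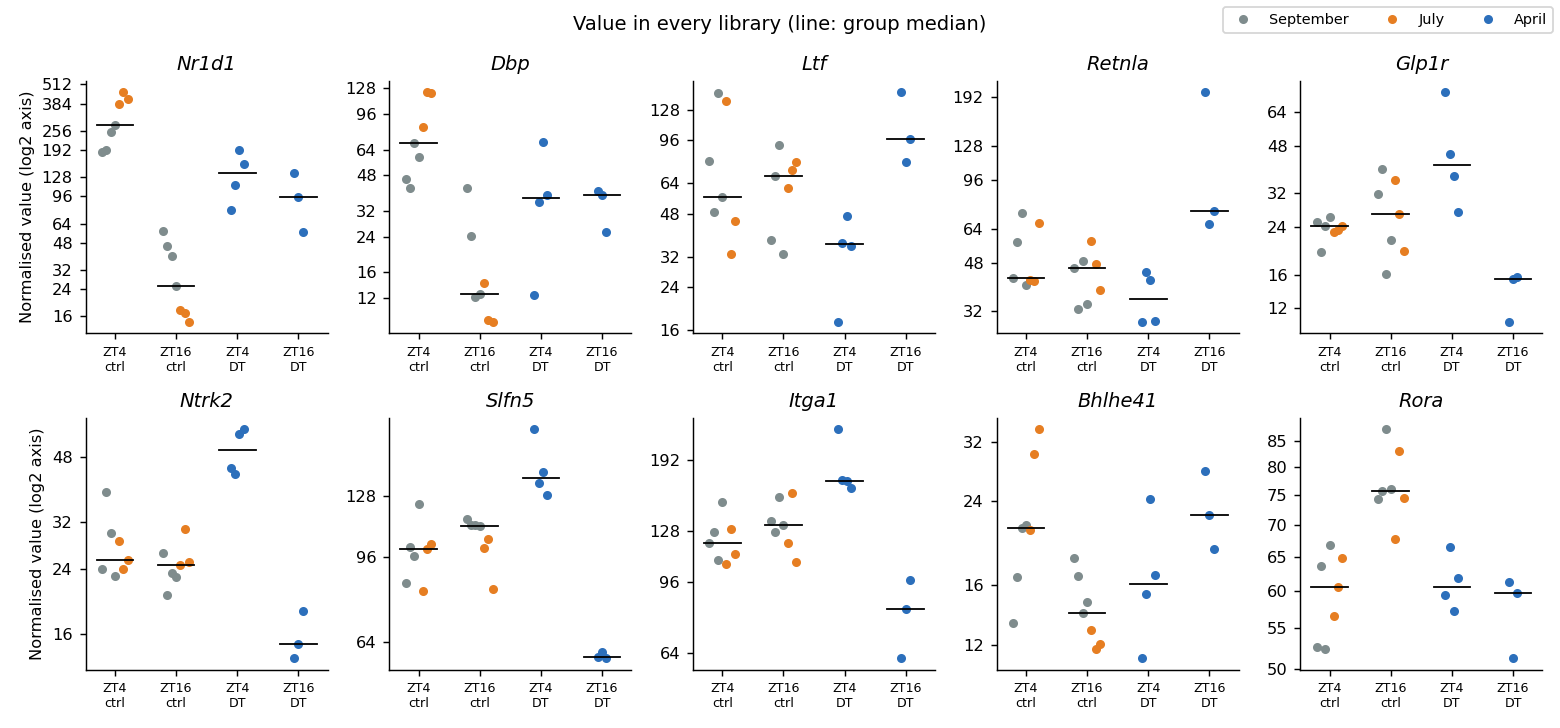
Normalised value (y axis, log2 scale) of 10 genes in each of the 21 libraries by group, coloured by batch, with a line at the group median. Glp1r, Ntrk2, Slfn5 and Itga1 separate the DT groups and not the control groups, while Nr1d1 separates the control groups and not the DT groups.

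Markers of secretory airway cells, which line the bronchioles and release secretoglobins, were higher as a group. Of 14 kept, 8 were called higher and 6 not called, beside 4.93% of all genes. The median difference was 0.76, with 0.94 against September and 0.51 against July controls. Against September controls 11 were called higher and against July controls 2, beside 789 and 213 of all 16786 genes. The list's median time change was 0.65 in DT mice and -0.10 in controls. Scgb3a2, a secretoglobin gene, went from 733 ± 80.6 (n = 4) to 1008 ± 39.3 (n = 3) in DT mice and from 871 ± 136 to 726 ± 75.8 in controls (n = 7 each), a difference of 0.72 ± 0.14 (adjusted p = 0.00149). Pigr, which carries immunoglobulin A across the epithelium, differed by 0.90, the tight junction gene Cldn10 by 0.63 and Scgb3a1 by 1.06. Their calls were lost without ZT16_DT Apr#2 (Pigr and Cldn10), and without ZT4_DT Apr#1 or ZT16_DT Apr#3 (Scgb3a1). The summed values of the list lay between 28980 and 38470 in ZT4_DT and between 44220 and 53720 in ZT16_DT, and between 34970 and 45210 in all controls. Without ZT4_DT Apr#1 or ZT16_DT Apr#2, 4 members were called. In whole tissue, fewer cells of a type and less RNA per cell cannot be told apart.

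Markers of ciliated airway cells, which move mucus with motile cilia, went the same way. Of 20 kept, 8 were called higher and 12 not called, beside 4.93% of all genes called higher, with a median of 0.44. The 4 of smallest p were Lrrc23 (0.74 ± 0.16, adjusted p = 0.00302) and Rsph1 (0.71 ± 0.16, adjusted p = 0.00466), parts of the radial spoke, Ccdc113 (0.72), a ciliary gene, and Cdhr3 (0.47), a cadherin of ciliated cells. Cfap126, a cilium gene outside the list, differed by 0.88 ± 0.17 (adjusted p = 0.00165) and went from 20.3 ± 2.04 to 32.1 ± 2.60 in DT mice. The summed values were 1283 to 1535 in ZT4_DT and 1579 to 1971 in ZT16_DT, against 1523 to 1751 and 1401 to 1615 in controls. With the length trend removed 7 members stayed called higher, with a median of 0.43, and of the secretory list 6, with a median of 0.70. Against September controls 8 ciliated members were called higher and against July controls 1, beside 789 and 213 of all 16786 genes. Without ZT4_DT Apr#1 or ZT16_DT Apr#2, 5 were called against all controls.

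Capillary endothelial markers showed the reverse. These cells line the alveolar vessels and form the gas exchange barrier with alveolar type 1 (AT1) cells. Of 20 kept, 13 were called lower and 7 not called, beside 8.86% of all genes, and all 20 differences were negative with a median of -0.50 (-0.56 against September and -0.43 against July controls). Against September controls 11 were called lower and against July controls 6, beside 1278 and 600 of all 16786 genes. The median time change was -0.45 in DT mice and 0.08 in controls. Ptprb, which encodes the phosphatase VE-PTP (chromosome 10, 116275523 to 116389535), measured 1506, 1195, 1112 and 1037 at ZT4 and 868, 743 and 886 at ZT16 in DT mice. In controls it ran from 718 to 1054 (median 841) at ZT4 and from 1054 to 1292 (median 1209) at ZT16. Its time change was thus downward in DT mice and upward in controls, with a difference of -1.01 ± 0.14 (adjusted p = 3.56e-05).

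Cdh5, the gene of VE-cadherin at endothelial junctions (chromosome 8, 104101625 to 104144511), measured 1048, 906, 883 and 826 at ZT4 and 482, 463 and 541 at ZT16 in DT mice, against 594 to 849 (median 741) and 602 to 735 (median 649) in controls. Every DT value of ZT16 lay below every control value, and the difference was -0.75 ± 0.12 (adjusted p = 0.000286). Tek, which encodes the angiopoietin receptor TIE2, differed by -0.81 ± 0.14 and Calcrl, a receptor for adrenomedullin, by -0.82 ± 0.16. Members without a call included Car4 (-0.0087), Cldn5 (-0.00033) and Pecam1 (-0.36), themselves much used markers of these cells and named after their values were seen. The summed values were 8466 to 10230 in ZT4_DT and 6299 to 6861 in ZT16_DT, and 6590 to 8586 and 7604 to 8809 in controls. With the length trend removed 10 members stayed called lower, and without ZT16_DT Apr#1 or ZT16_DT Apr#2, or with quantile normalisation, 8 did. Ace, which encodes angiotensin-converting enzyme and stood in the monocyte list, is abundant in lung capillaries and differed by -0.90 ± 0.15 (adjusted p = 0.000386).

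Other structural cells had fewer calls, to be read beside 4.93% of all genes called higher and 8.86% lower. Of 17 fibroblast markers 6 were called lower, with a median of -0.29, among them the growth factor receptor gene Pdgfra (-0.84 ± 0.16, adjusted p = 0.0013, with 652 exon bases shared with another gene) and Fgf10 (-0.63), a growth factor of lung mesenchyme. Of these calls 3 were left without ZT16_DT Apr#1 and 3 with quantile normalisation. Against September controls 6 fibroblast markers were called lower and against July controls 2, beside 1278 and 600 of all 16786 genes. Of 19 AT1 markers 5 were called lower (median -0.14, and 0.00 against July controls), with Emp2 (-0.60), also in the capillary list, and Clic5 (-0.70), and quantile normalisation left 1. Without any one of ZT4_DT Apr#1, ZT16_DT Apr#2, ZT16_DT Apr#3, ZT4_control Sep#1, ZT4_control Sep#3 or ZT16_control Sep#1, 2 were called. Markers of AT2 cells were called higher in 2 cases and lower in 2, of 21. With 1 library left out the lower calls ran from 0 (without ZT4_DT Apr#1 or ZT16_DT Apr#1) to 3 and the higher calls from 1 to 2. Of 32 extracellular matrix genes 4 were called lower and 1 higher, shares near those of all genes. The basement membrane collagen genes Col4a1 (-0.81 ± 0.14, adjusted p = 0.000587) and Col4a2 (-0.71 ± 0.14) were lower, and the glycoprotein gene Tnc was higher (1.11 ± 0.28, adjusted p = 0.00885). The median of that list was -0.10 and turned to 0.02 with quantile normalisation. Without ZT16_DT Apr#2 2 matrix genes were called lower and Tnc was not called. Of 17 genes of efferocytosis and the LXR pathway 5 were lower and 1 higher, with the lipid exporter Abca1 at -0.85 ± 0.19, the fatty acid receptor Cd36 at -0.54 ± 0.11 and the receptor kinase gene Tyro3 at 0.57. Without ZT16_DT Apr#1 or ZT16_DT Apr#2, 3 members were called lower, and with quantile normalisation 2. The Tyro3 call was lost without ZT16_DT Apr#2.

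**Figure D5:**
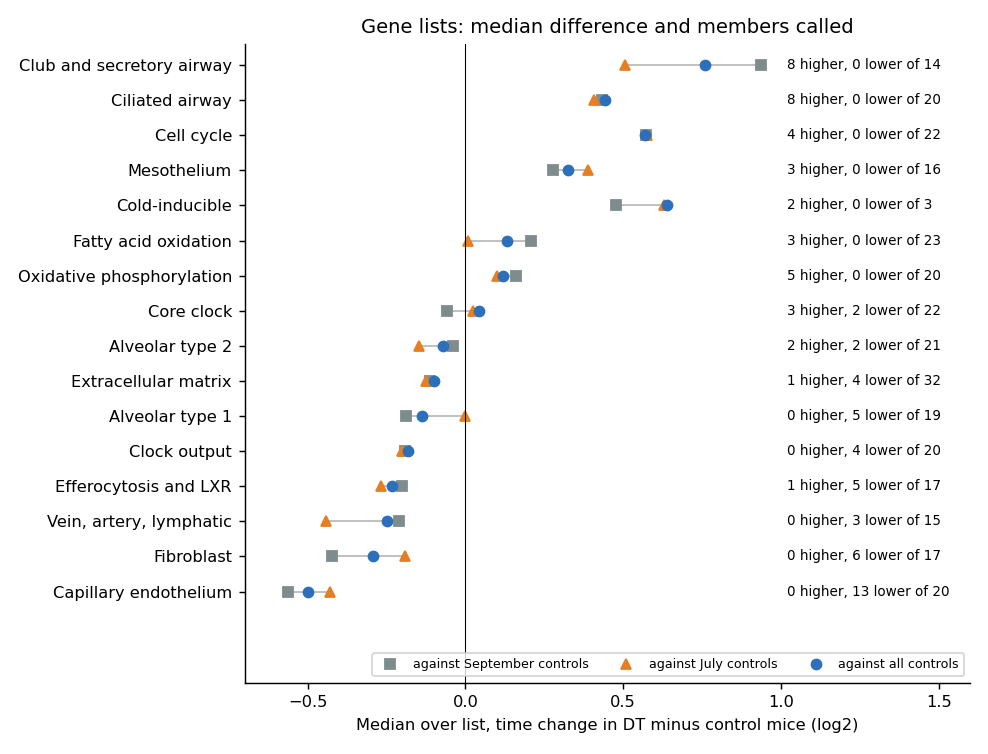
Median difference in time change, DT minus control (log2, x axis), over 16 gene lists, as circles against all controls, squares against September and triangles against July controls, with the number of members called at right. Secretory and ciliated airway markers lie at 0.76 and 0.44, and capillary endothelium at -0.50.

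Of 34 xenobiotic metabolism genes 12 were called higher at ZT16 in controls, beside 4.65% of all genes. In DT mice also 12 were, beside 5.3%. Their differences between the arms went in both directions. For the difference, 7 were lower and 5 higher, beside 8.86% and 4.93% of all genes. The lower ones included Fmo1, a flavin monooxygenase gene (-0.65 ± 0.12, adjusted p = 0.00114), and Gsta3, a glutathione transferase gene that rose in both arms. Gsta3 went from 179 ± 16.5 to 352 ± 30.3 in controls (n = 7 each) and from 198 ± 11.1 (n = 4) to 297 ± 4.75 (n = 3) in DT mice, a difference of -0.39 ± 0.09 (adjusted p = 0.00707), lost with quantile normalisation. Gstp1, of the same enzyme family, was higher (0.41). Without ZT16_DT Apr#2 or with the length trend removed 2 were called higher, and without ZT4_DT Apr#1 3. Hdc, the enzyme gene of histamine synthesis, belongs to the mature neutrophil list given below. It changed by -0.96 ± 0.12 in controls (adjusted p = 2.13e-08) and by -0.12 in DT mice (adjusted p = 0.61), a difference of 0.84 ± 0.17 (adjusted p = 0.00214).

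Calls in other metabolic and growth lists are to be read beside 4.93% of all genes called higher. Of 20 oxidative phosphorylation genes 5 were called higher (median 0.12), with Cox6c at 0.37 and Ndufa4 at 0.40, both subunit genes of the respiratory chain. With the length trend removed 2 were called, with quantile normalisation 10, without ZT4_DT Apr#1 2, without ZT16_DT Apr#1 3 and without ZT16_control Jul#3 8. Against September controls 5 were called higher (median 0.16) and against July controls 0 (median 0.10), beside 789 and 213 of all 16786 genes. Of 22 cell cycle genes 4 were called higher, among them the kinase gene Cdk1 (1.17 ± 0.36, adjusted p = 0.027) and the cyclin gene Ccnb1 (1.18). All 22 differences were positive with a median of 0.57. Without ZT16_DT Apr#1 limma called 0 in place of 4, and the median was 0.26. With all libraries 10 had an unadjusted p under 0.05 in limma. Without ZT4_DT Apr#1 or with quantile normalisation 1 was called, 2 without ZT4_control Sep#3, ZT16_control Sep#2 or ZT16_control Sep#3, and 7 without ZT16_DT Apr#2. The Ccnb1 call was lost in 10 of the 21 fits that left out a library and with the length trend removed (adjusted p = 0.0742), and the Cdk1 call without ZT4_DT Apr#1 or ZT16_DT Apr#1. The transcripts of the cold-inducible RNA-binding proteins Cirbp (0.78) and Rbm3 (0.64) were higher, and both calls were lost without ZT4_DT Apr#1 or ZT16_DT Apr#1. The Cirbp call was also lost without ZT4_DT Apr#4 or ZT16_DT Apr#3 and with the length trend removed (0.62, adjusted p = 0.0982). Fatty acid oxidation genes were called higher in 3 of 23 cases, with Acads at 0.50, in 1 case without ZT4_DT Apr#1 or ZT16_DT Apr#1 and in 6 cases with quantile normalisation.

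Leukocyte genes held few calls. Of 22 mature neutrophil genes 1 was called higher (Hdc, 0.84) and 1 lower (G0s2, -0.73), beside 4.93% and 8.86% of all genes. The Hdc call was kept with each library left out. Hdc went from 87.4 ± 8.56 to 47.0 ± 4.92 in anti-Ly6G mice, close to 92.6 ± 22.7 and 46.4 ± 4.40 in controls (mean ± SD, n = 7 each). Which cells gave the Hdc signal was not tested. The median of the 22 genes was 0.61, but 0.92 against September and 0.16 against July controls. The control group of ZT4 held a library, ZT4_control Sep#2, with a summed value of these genes of 1412, where no library of the other 3 groups exceeded 412. Without it the median was 0.39. The G0s2 call was lost without ZT4_DT Apr#1, ZT4_DT Apr#2 or ZT16_DT Apr#1, and with 1 library left out 1 to 3 members were called higher, the most without ZT4_control Sep#4. The calprotectin genes S100a8 (0.96, adjusted p = 0.463) and S100a9 (1.22, adjusted p = 0.347), the receptor genes Csf3r (0.59, adjusted p = 0.524) and Cxcr2 (1.08, adjusted p = 0.0654), Retnlg (1.34, adjusted p = 0.223) and the gelatinase gene Mmp9 (1.25, adjusted p = 0.0921) did not pass. In DT mice S100a8 stood at 6.75 ± 0.45 at ZT4 (n = 4) and 8.70 ± 5.38 at ZT16 (n = 3), and Ly6g, too low for the filter, at 0.20 ± 0.10 and 0.35 ± 0.32. Cxcl15, a neutrophil-attracting chemokine gene of the lung epithelium, fell with time in both arms, from 1320 ± 118 to 531 ± 44.4 in controls and from 1080 ± 102 to 597 ± 40.7 in DT mice. Its difference of 0.46 ± 0.12 passed (adjusted p = 0.0136), and with the length trend removed it was 0.38 (adjusted p = 0.0509). Natural killer, B cell and alveolar macrophage lists had 0 calls in limma among 19, 20 and 18 genes, with 0, 1 and 2 at an unadjusted p under 0.05. Among 22 T cell genes the signalling kinase gene Zap70 was called (0.76). Heat shock genes also had 0 calls of 20 in limma, with 4 at an unadjusted p under 0.05. Of their differences 18 were negative, with a median of -0.26 (-0.39 against September and -0.22 against July controls). Hspa1a differed by -1.97 ± 0.87 (adjusted p = 0.123), and it has the near-identical neighbour Hspa1b. In control mice at ZT16 Hspa1a measured 377 in ZT16_control Sep#3 and 20.2 to 33.3 in the other libraries.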

How the data were processed

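Lung RNA was sequenced from 35 mice. The deposited table holds the authors' normalised expression values per gene, used here as a signal that is neither a count nor a per-million value, since the columns sum to 967541 to 1033550. Per the submitters' processing notes, the tools named are kallisto 0.43.1, RSEM 1.2.20, CASAVA 1.8.2 and cutadapt, with the build GRCm38. The normalisation and any batch adjustment are not given in the sources used here. No whole reads can be recovered from the values, which leaves the depth unknown.

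Genes with a value of 1 or more in at least 3 libraries were kept (16786 of 22211). Values were taken as log2(value + 0.5) and fitted with limma 3.58.1 (R 4.3.3, trend on mean level) over all 35 libraries, with 6 group means and a September term (28 residual degrees of freedom), or with 10 means of group and batch (25) for comparisons with 1 control batch. P-values were adjusted by Benjamini-Hochberg over all genes kept. A fold change on this scale understates the change of low genes. Columns were matched to group and batch by name, so p-values measure the spread between libraries that the labels call separate samples. Scripts were tested on simulated data.

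Genes named are the 12 largest positive and 12 largest negative differences among called genes with a usual symbol, a level at or above the median and 1 sign against both control batches, the core clock list (1 member is not reported here), 7 genes of neutrophils, and from every list at most the 4 kept genes with the smallest p. The members and the 44 gene lists were chosen with earlier results of these data known. Alternatives were other pseudocounts, filters, scalings, weights and libraries left out.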

Additional observations from a re-analysis of the deposited data

Results flagged for a closer look

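In 1 of 33 groups of 4 to 10 libraries, over 11 measures, 1 library stood far from the rest: ZT4_DT Apr#1 had the highest Itga1 value, 228.4, with the nearest at 170.9 and the gap taking 0.882 of the group's range. Chance alone marks some groups in such a screen. ZT16_DT, with 3 libraries, was too small to be screened. The difference between the time changes of DT and control mice passed its limma test for 2314 genes, and DT, genotype and batch cannot be told apart in any of them. Among the genes shown by library it was 2.89 for Nr1d1, 2.22 for Dbp, 1.88 for Ltf, 1.70 for Retnla and 1.06 for Bhlhe41. It was -1.76 for Glp1r, -1.50 for Ntrk2, -1.37 for Slfn5, -1.32 for Itga1 and -0.46 for Rora.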

How the results depend on the processing

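Counts of called genes for each difference in time change, for time change in DT mice and for time change in control mice stayed within 1.5 times under the other pseudocounts, filters, scalings and fits, except as follows, and the cause was not tested. With the transcript length trend removed, 1418 genes were called for DT minus control, 1230 against September, 457 against July controls and 3 for September minus July. With sample weights 1265 were called against July controls and 4 for September minus July. Leaving out 1 library gave 1161 to 2633 for DT minus control, 1153 to 2296 against September, 367 to 976 against July controls, 1190 to 2554 for time in DT mice, 0 to 2 for September minus July and 2121 to 3399 for DT minus anti-Ly6G. The lowest values for these comparisons of DT mice came without ZT4_DT Apr#1. Against September controls 1373 were called without ZT4_control Sep#3. Against July controls 446 were called without ZT4_control Jul#1, 405 without ZT16_control Jul#2 and 464 without ZT16_DT Apr#2. For time in DT mice 1559 were called without ZT16_DT Apr#1 and 1537 without ZT16_DT Apr#2. Time in control mice gave 1136 to 1576. The difference of Arntl, 0.14, ranged from -0.067 to 0.43 with 1 library left out. Median centring called 682 higher and 1772 lower genes. No paired analysis was possible because the replicate numbers of the table columns match no single sample title. Unknown read depth limits what can be said of low genes.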

Other observations

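Only 2 genes changed more than 8-fold with time in DT mice without overlap of the groups, both downward. They fall outside the rule for named genes and were chosen after their values were seen. Gm11175 (chromosome 8, 70699162 to 70700080, GRCm38) measured 38.7, 27.2, 29.4 and 13.4 at ZT4 and 0.616, 0.582 and 0.795 at ZT16 in DT mice, a change of -4.48, against 0.31 in control and 0.69 in anti-Ly6G mice. It shares 877 exon bases with another gene. RP23-325D10.3 (chromosome 7, 127785608 to 127803802) measured 16.1, 23.6, 24.4 and 13.5 at ZT4 and 0.295, 0.276 and 0.397 at ZT16, a change of -4.56, against -0.16 in control and 1.51 in anti-Ly6G mice.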
